A study of Mus musculus with 8 samples.

Results

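The genes described here are the TNF and TNF receptor superfamilies, 44 genes chosen by symbol from the 49315 gene identifiers of a count table of mouse esophagus. The rule took the gene symbols that begin with Tnfsf or Tnfrsf and a number, and the members named otherwise, namely Tnf, Lta, Ltb, Fasl, Cd40lg, Cd70 and Eda among the ligands and Ltbr, Fas, Cd40, Cd27, Ngfr and Edar among the receptors. It gave 18 ligands and 26 receptors, and used no measured value, though it was chosen with earlier results of these data known. All 44 members had a row in the table, and 36 had enough reads to be tested. Whole esophagi of male mice aged 8 weeks were compared between EoE33 mice, which carry a transgene for the alarmin cytokine IL-33, and wild type C57BL/6J littermates without it, with 4 libraries of each. The promoter that drives the transgene, and whether the 4 libraries of a genotype each came from a mouse of their own, are not stated in the labels. The p-values measure the spread between these libraries.

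TNF superfamily ligands are trimeric proteins, most of them held in the cell membrane and some released from it by proteases such as ADAM17. Their receptors bind them through cysteine-rich repeats and pass the signal on through TRAF adapters to NF-kB and the MAP kinases, or, where they carry a death domain, through adapters that can also start caspases. Decoy receptors bind a ligand without signalling. Within a tissue the families serve inflammation (Tnf, the lymphotoxins), B and plasma cell survival (BAFF and APRIL), T cell costimulation, cell death, and the shaping of epithelia and their appendages (ectodysplasin).

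The libraries held 17.7 to 24.1 times 1e6 counts. Il33 itself was at 99.8 to 165.1 CPM (counts per 1e6 counts, with TMM-scaled library sizes) in wild type and at 354.7 to 393.4 CPM in EoE33, 2.88-fold higher (edgeR adjusted p = 1.52e-05). The markers of esophageal epithelium were present in all libraries, at a summed 53452 to 93795 CPM in wild type and 32400 to 50309 CPM in EoE33. Wild type replicate 3 stood apart with 350.6 CPM of the airway gene Scgb1a1, against 5.44 to 5.90 CPM in the other wild type libraries, and wild type replicate 1 with 91.3 CPM of the liver gene Alb, against 3.21 to 6.90 CPM. Without these libraries 7 ligands, 15 receptors and 8827 of 17354 genes in all (50.9%) passed the test, against 8, 17 and 10621 of 16760 (63.4%) with all libraries. Wild type replicates 3 and 4 also held more B cell transcripts than the other wild type libraries.

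More members rose than fell in EoE33. Of the 36 tested members, 20 rose, 5 fell and 11 did not pass the test (edgeR's quasi-likelihood test, Benjamini-Hochberg adjusted p under 0.05). The call was common in this comparison, since 63.4% of all 16760 tested genes passed, 31.3% upwards and 32.1% downwards. The share of tested members that passed, 69.4%, was thus close to that of all genes, while 55.6% of them rose and 13.9% fell. Among the receptors, all 26 of which were tested, 14 rose and 3 fell, with a median log2 fold change of 0.55. Among the 10 tested ligands 6 rose and 2 fell, with a median of 1.36, against -0.014 over all tested genes. The ligand values leave out the 8 ligands with few reads, and a gene could be kept through its reads in 1 group alone, so they describe the tested ligands and not the family. At 2-fold or more, 15 members rose and 2 fell, and 27.2% of all tested genes passed at that size in either direction. The groups did not overlap for 24 tested members, 20 of them above wild type and 4 below, and for 59.5% of all tested genes, 29.6% above and 29.9% below. All 44 together took 0.0350% to 0.0400% of the counts in wild type and 0.0529% to 0.0741% in EoE33.

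**Figure D1:**
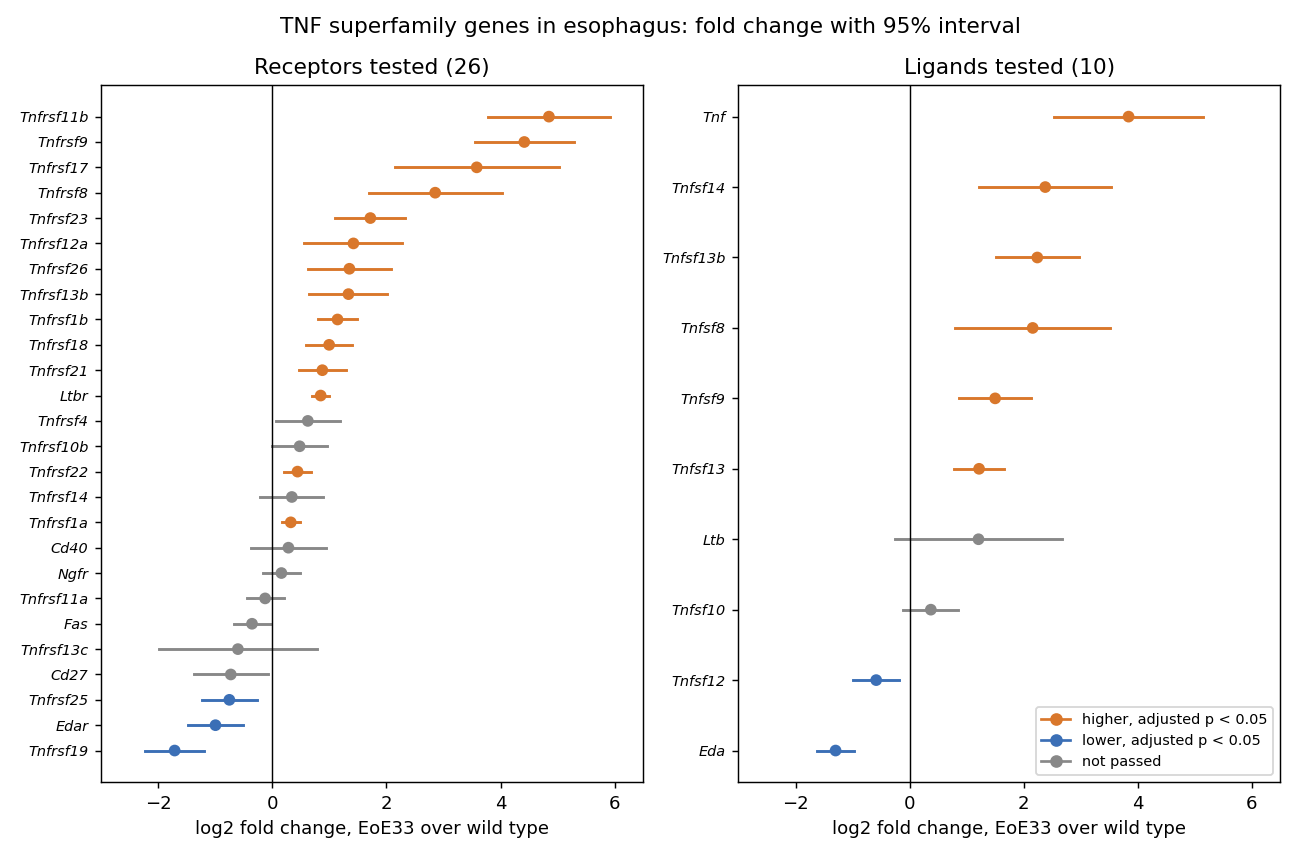
Log2 fold change of EoE33 against wild type for the 36 tested members, ligands and receptors apart, with 95% confidence intervals from edgeR's quasi-likelihood fit (4 libraries per genotype), orange where a member rose, blue where it fell and grey where it did not pass. The intervals are not adjusted for the number of genes. Tnfrsf11b lies farthest to the right at 4.85 and Tnfrsf19 farthest to the left at -1.71.

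The 5 largest rises among the members were those of Tnfrsf11b, Tnfrsf9, Tnf, Tnfrsf17 and Tnfrsf8, between 7.23-fold and 28.8-fold. The last 4 were close to the detection limit in wild type, at a mean of 0.0958 to 0.224 CPM, where 3 counts in a library correspond to 0.127 to 0.176 CPM. Their size therefore rests on few wild type reads, and their direction on 97 to 265 reads over the 4 EoE33 libraries. The members' values in each library and their roles follow the sequences before their start sites.

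The upstream sequences are shown for the members with the largest rises among those with a listed start site. The NF-kB consensus was searched because it is known, and a part of NF-kB in the rises was not tested. Of the 44 members, 34 had at least 1 start site in the RefSeq table (GRCm38.p6), 38 start sites in all, and Tnfrsf11b was not in it. Each line gives the 250 bases before a start, 5′ to 3′ on the gene's strand. Capitals mark a match to the NF-kB consensus of 10 bases or to TATAAA, both searched on both strands. The windows are chr4:150919905-150920154 (plus strand) and chr4:150927749-150927998 (plus strand) for Tnfrsf9, chr17:35202008-35202257 (minus strand) for Tnf, chr16:11313559-11313808 (plus strand) for Tnfrsf17 and chr4:145315165-145315414 (minus strand) for Tnfrsf8.
Tnfrsf9, upstream start: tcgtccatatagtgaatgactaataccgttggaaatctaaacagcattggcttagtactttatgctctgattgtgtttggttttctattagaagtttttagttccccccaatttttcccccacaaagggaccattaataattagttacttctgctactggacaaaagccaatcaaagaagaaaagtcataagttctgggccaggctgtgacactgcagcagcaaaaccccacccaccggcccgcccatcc
Tnfrsf9, downstream start: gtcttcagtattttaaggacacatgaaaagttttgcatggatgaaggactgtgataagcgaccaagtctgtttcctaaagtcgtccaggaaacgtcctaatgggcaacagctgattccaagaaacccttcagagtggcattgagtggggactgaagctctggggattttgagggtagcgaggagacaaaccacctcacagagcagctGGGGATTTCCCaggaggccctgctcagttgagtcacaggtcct
Tnf: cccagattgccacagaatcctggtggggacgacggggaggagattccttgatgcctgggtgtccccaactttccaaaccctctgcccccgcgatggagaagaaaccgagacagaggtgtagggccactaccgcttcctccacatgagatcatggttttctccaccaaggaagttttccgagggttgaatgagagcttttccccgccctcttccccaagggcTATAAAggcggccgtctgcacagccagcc
Tnfrsf17: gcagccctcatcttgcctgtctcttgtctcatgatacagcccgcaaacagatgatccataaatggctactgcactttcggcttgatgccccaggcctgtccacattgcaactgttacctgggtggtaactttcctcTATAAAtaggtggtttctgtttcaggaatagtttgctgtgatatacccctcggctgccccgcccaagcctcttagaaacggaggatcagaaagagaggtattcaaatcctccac
Tnfrsf8: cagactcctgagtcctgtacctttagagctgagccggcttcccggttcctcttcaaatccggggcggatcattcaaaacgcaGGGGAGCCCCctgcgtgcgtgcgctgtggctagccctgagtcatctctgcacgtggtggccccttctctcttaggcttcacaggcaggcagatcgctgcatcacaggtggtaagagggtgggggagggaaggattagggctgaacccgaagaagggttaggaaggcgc

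In these windows the downstream start of Tnfrsf9 had overlapping NF-kB matches 43 to 33 bases before the start, and Tnfrsf8 had 1 match 168 to 159 bases before it, read on the other strand. Tnf held TATAAA 29 to 24 bases and Tnfrsf17 114 to 109 bases before the start. Over all member start sites, 3 of 38 windows (7.89%) held an NF-kB match, the third being that of Ltb, against 3.90% of the 32851 windows in the table. TATAAA was found in 6 of 38 windows (15.8%) and in 12.4% of all windows. These matches describe letters and not binding.

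Tnf, the founding ligand and a mediator of inflammation (chr17:35199381-35202007, GRCm38), was nearly absent from wild type. It was at 0.127, 0, 0.339 and 0.428 CPM in wild type replicates 1 to 4 and at 2.63, 4.51, 3.84 and 2.20 CPM in EoE33 replicates 1 to 4. Every EoE33 library lay above every wild type library. The difference was 14.3-fold (log2 fold change 3.84, SE 0.58, edgeR adjusted p = 0.000381). Wild type replicates 1 and 2 held 3 and 0 reads of Tnf, fewer than replicates 3 and 4 with 8 and 10. Against replicates 1 and 2 alone, chosen after the data were seen, the ratio for the 265 EoE33 reads was 50.4. Its exact 95% interval was 17.1 to 245.9 (counting error only). This ratio leaves out the higher wild type libraries and does not replace the 14.3-fold difference over all libraries.

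The neighbours of Tnf in the lymphotoxin locus did not pass. Ltb, which forms the membrane-bound lymphotoxin with Lta, was at 0.552, 0.264, 2.20 and 3.34 CPM in wild type and at 2.53, 4.27, 4.53 and 3.40 CPM in EoE33. Wild type replicate 4 lay within the EoE33 range, so the groups overlapped (log2 fold change 1.21, 95% interval -0.25 to 2.67, edgeR adjusted p = 0.129). Without wild type replicate 4 the difference passed, at 1.86 (edgeR adjusted p = 0.0345), and without replicates 3 and 4 it was 3.15 (adjusted p = 0.00072). Replicates 3 and 4 were its highest wild type libraries, so leaving them out raises the estimate by itself. Lta had 0, 2, 11 and 9 reads in wild type and 1, 2, 0 and 4 in EoE33, too few to be tested. Its highest counts were in wild type replicates 3 and 4, the wild type libraries with more B cell transcripts (26.1 and 25.5 CPM over the B cell genes summed below). EoE33 replicates 2 and 3, at 41.2 and 25.6 CPM of these genes, had 2 and 0 reads of Lta. The part of B cells in the Lta reads was not tested.

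Tnfrsf1a, Tnfrsf1b and Ltbr, receptors of these ligands, rose. Per exon length Tnfrsf1a and Ltbr were the most abundant receptors in wild type. Tnfrsf1a, the widely expressed TNF receptor with a death domain, went from 129 ± 7.71 to 161 ± 11.1 CPM (mean ± SD, n = 4 each), 1.25-fold (edgeR adjusted p = 0.00351). Tnfrsf1b, the TNF receptor without a death domain that immune and endothelial cells carry, was at 13.5, 12.0, 15.2 and 19.2 CPM in wild type and at 29.5, 29.7, 39.2 and 33.9 CPM in EoE33. It did not overlap between the groups and rose 2.21-fold (log2 fold change 1.14, SE 0.15, edgeR adjusted p = 0.000189). Ltbr, the lymphotoxin beta receptor of stromal, epithelial and myeloid cells, had the smallest p of all members. Its wild type libraries lay between 37.5 and 43.7 CPM and its EoE33 libraries between 70.9 and 78.8 CPM, a 1.8-fold rise (log2 fold change 0.85, SE 0.07, edgeR adjusted p = 7.75e-06). Beside these results, 10 of 12 macrophage and monocyte markers (83.3%) rose and none fell, against 31.3% and 32.1% of all tested genes. Lyz2 and Cd163 did not pass. The summed level of the markers was 446 to 909 CPM in wild type and 866 to 1168 CPM in EoE33, so the sums overlapped. Lyz2 was a large part of this sum, at 185.0 to 496.7 CPM in wild type, highest in replicate 3, and 245.8 to 440.2 CPM in EoE33. No marker was at 0 in either group. The part of these cells in the members' levels was not tested. In bulk tissue, more cells of a type and more RNA per cell cannot be told apart.

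**Figure D2:**
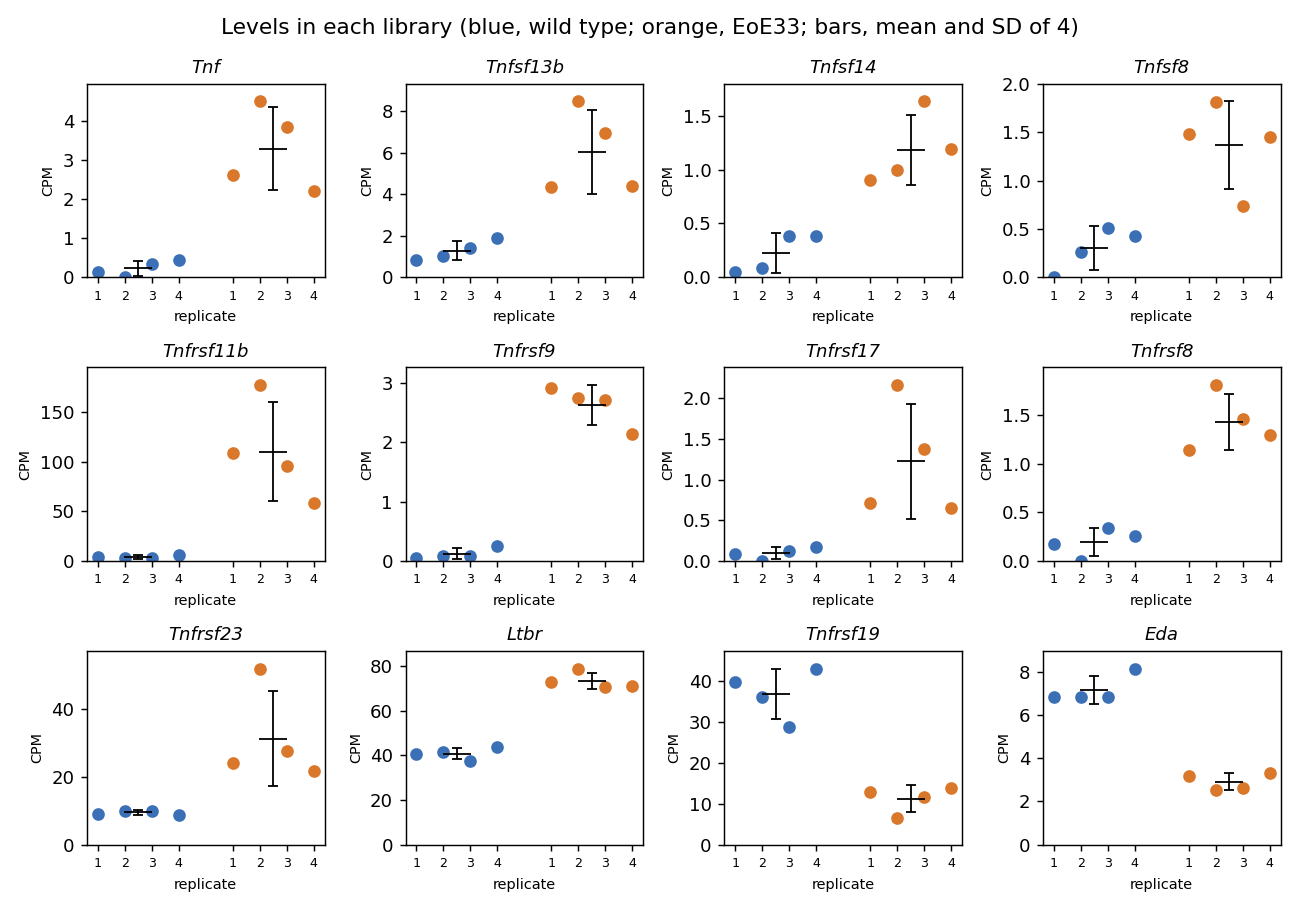
CPM (linear axes from 0) in each of the 8 libraries for 12 members that rose or fell, wild type in blue and EoE33 in orange, each point a library and the bars the mean and SD of 4. Tnfrsf11b goes from 2.54 to 6.30 CPM in wild type to 57.8 to 177.1 CPM in EoE33.

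Tnfrsf11b, which encodes osteoprotegerin, a soluble decoy receptor for RANKL that also binds TRAIL, showed the largest rise of the family (chr15:54250619-54278484, GRCm38). It was at 3.86, 2.55, 2.54 and 6.30 CPM in wild type and at 108.9, 177.1, 96.0 and 57.8 CPM in EoE33. The lowest EoE33 library lay far above the highest wild type library. The difference was 28.8-fold (log2 fold change 4.85, SE 0.46, edgeR adjusted p = 5.69e-05). Per exon length, osteoprotegerin moved from the 13th to the 2nd highest receptor. The other genes of this axis did not pass or had too few reads. Tnfrsf11a, the signalling receptor RANK, was at 6.16 ± 1.07 CPM in wild type against 5.64 ± 0.382 CPM in EoE33 (log2 fold change -0.13, 95% interval -0.45 to 0.20, edgeR adjusted p = 0.46). Its estimate changed sign to 0.000783 without wild type replicate 4. Tnfsf11, RANKL itself, had 2, 1, 0 and 6 reads in wild type and 6, 30, 6 and 2 in EoE33, with most of them in EoE33 replicate 2, and was not tested.

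**Figure D3:**
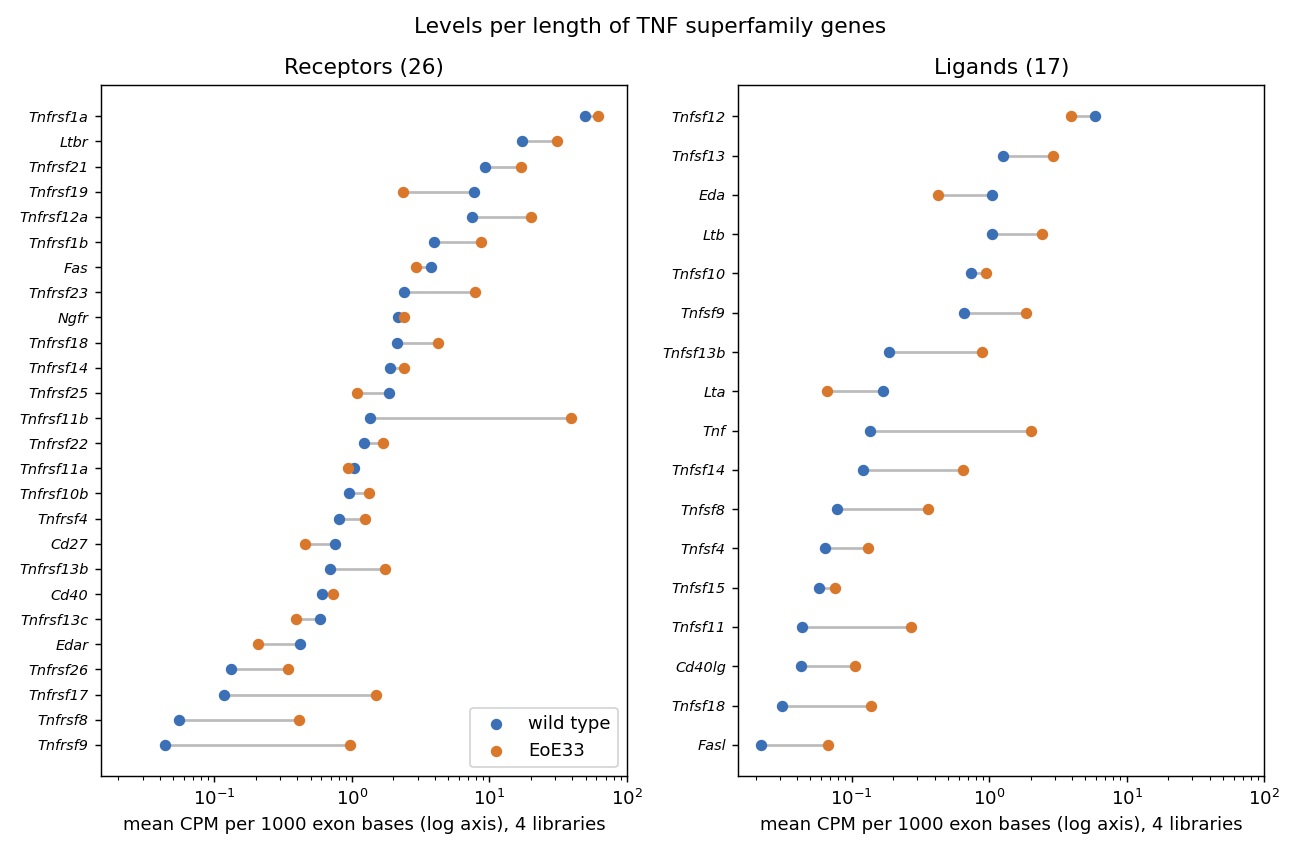
Mean level per exon length (CPM per kilobase of exon, log axis) of each ligand and receptor in wild type (blue) and EoE33 (orange), ordered by wild type level, without Cd70, which had no read in EoE33. Tnfrsf1a is the highest receptor in both genotypes at 49.6 and 62.0, and Tnfrsf11b goes from 1.35 to 39.0.

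Levels can be compared between genes only per exon length. In wild type the receptor order began with Tnfrsf1a (49.6 ± 2.97 CPM per kilobase), Ltbr (17.3 ± 1.09), Tnfrsf21 (9.26 ± 1.49), Tnfrsf19 (7.76 ± 1.29) and Tnfrsf12a (7.43 ± 0.864). The last 3 of these overlap within 1 SD. In EoE33 the order began with Tnfrsf1a (62.0 ± 4.28), Tnfrsf11b (39.0 ± 17.7), Ltbr (31.2 ± 1.58), Tnfrsf12a (19.9 ± 11.7) and Tnfrsf21 (17.0 ± 4.05). Of these, Tnfrsf11b and Ltbr overlap within 1 SD, and Tnfrsf12a overlaps with Tnfrsf11b, Ltbr and Tnfrsf21. Tnfrsf19 moved from the 4th to the 12th place, at 2.36 ± 0.699. In both genotypes all ligands were below the 5 leading receptors. Tnfsf12 was the highest ligand in both genotypes, at 5.91 ± 1.37 in wild type and 3.94 ± 0.241 in EoE33, and Tnf moved from the 9th to the 4th place at 2.01 ± 0.651.

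The BAFF and APRIL ligands, which keep B and plasma cells alive, rose together. Tnfsf13b (BAFF) was at 0.806, 1.01, 1.40 and 1.89 CPM in wild type and at 4.35, 8.49, 6.95 and 4.39 CPM in EoE33, above wild type in every library. The rise was 4.72-fold (log2 fold change 2.24, SE 0.32, edgeR adjusted p = 0.000279). Tnfsf13 (APRIL), at 1.95, 2.33, 2.33 and 1.59 CPM in wild type and 5.06, 5.91, 4.14 and 4.00 CPM in EoE33, also lay above wild type in every library, and rose 2.33-fold (edgeR adjusted p = 0.000543). Reads of Tnfsf13 may not all be its own. Of its 150-base exon windows 41% also occur in the read-through gene Tnfsfm13, which joins it to Tnfsf12, and Tnfsfm13 was at 2.87 ± 0.595 and 3.13 ± 0.599 CPM (log2 fold change 0.12, edgeR adjusted p = 0.622). The antisense gene Tnfsf13os overlaps 13.5% of its exon bases, and went from 1.49 to 2.78 CPM.

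Among the receptors of BAFF and APRIL, Tnfrsf17 and Tnfrsf13b rose and Tnfrsf13c did not pass. Tnfrsf17 (BCMA, the receptor of plasma cells) had 2, 0, 3 and 4 reads in wild type and 15, 37, 32 and 13 in EoE33, that is 0.0958 ± 0.073 and 1.23 ± 0.707 CPM. No EoE33 library fell within the wild type range (log2 fold change 3.58, SE 0.64, edgeR adjusted p = 0.000982). Tnfrsf13b (TACI, of B and plasma cells) was at 1.1, 1.27, 2.54 and 2.87 CPM in wild type and at 5.01, 5.62, 4.70 and 4.34 CPM in EoE33. It rose 2.52-fold with no overlap (edgeR adjusted p = 0.00397), and wild type replicates 3 and 4 were its higher wild type libraries. Tnfrsf13c (the BAFF receptor of mature B cells) was at 0.594, 0.483, 1.23 and 2.48 CPM in wild type and at 0.621, 1.41, 0.906 and 0.25 CPM in EoE33, fully overlapping (log2 fold change -0.60, 95% interval -1.99 to 0.78, edgeR adjusted p = 0.41). Its estimate turned to 0.028 without wild type replicate 4 and to 0.53 without replicates 3 and 4.

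The B cell and plasma cell content of the libraries differed within groups. Summed B cell genes (Ms4a1, Cd79a, Cd79b, Pax5 and Blk, chosen after their values were seen) were at 1.15, 0.703, 26.1 and 25.5 CPM in wild type replicates 1 to 4 and at 12.4, 41.2, 25.6 and 6.69 CPM in EoE33. Wild type replicates 3 and 4 therefore lay within the EoE33 range, and replicates 1 and 2 below it. Summed plasma cell genes (Mzb1, Jchain and Derl3, also chosen after their values were seen) were at 1.83, 1.76, 28.4 and 14.5 CPM in wild type and at 329, 530.3, 317.7 and 260.5 CPM in EoE33, without overlap. Jchain made up most of this sum in EoE33, at 247.9 to 502.3 CPM. Of 13 B and plasma cell markers 7 rose and none fell, against 31.3% and 32.1% of all tested genes. In either direction 53.85% of these markers were called, against 63.4% of all tested genes. Their sum went from 385 to 478 CPM in wild type to 877 to 1260.2 CPM in EoE33. No marker was at 0 over a whole group, and in single libraries Pax5 was at 0 in wild type replicate 2 and Fcrla in wild type replicate 1. That list includes Sdc1 and Prdm1, which epithelium also makes and which gave most of the sum. Sdc1 alone was at 267 to 334 CPM in wild type and 481 to 560 CPM in EoE33. The sum is therefore not a measure of B and plasma cells alone. The part of these cells in the members' levels was not tested. Without wild type replicates 3 and 4, a comparison chosen after the data were seen, 8 ligands and 16 receptors passed. Of all 17355 genes tested in it, 54.5% passed. In this comparison Tnf, Tnfsf14, Tnfrsf17, Tnfrsf13b and Tnfrsf8 showed log2 fold changes of 5.54, 4.08, 4.64, 2.04 and 3.96. Tnfrsf12a, Tnfrsf22 and Tnfsf12 no longer passed. For the members whose fold changes are given, the left-out libraries were the higher wild type ones. Their larger values therefore follow from the choice of libraries and do not replace those over all libraries. Tnf, Tnfsf14 and Tnfrsf17 had only 3, 3 and 2 wild type reads left.

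**Figure D4:**
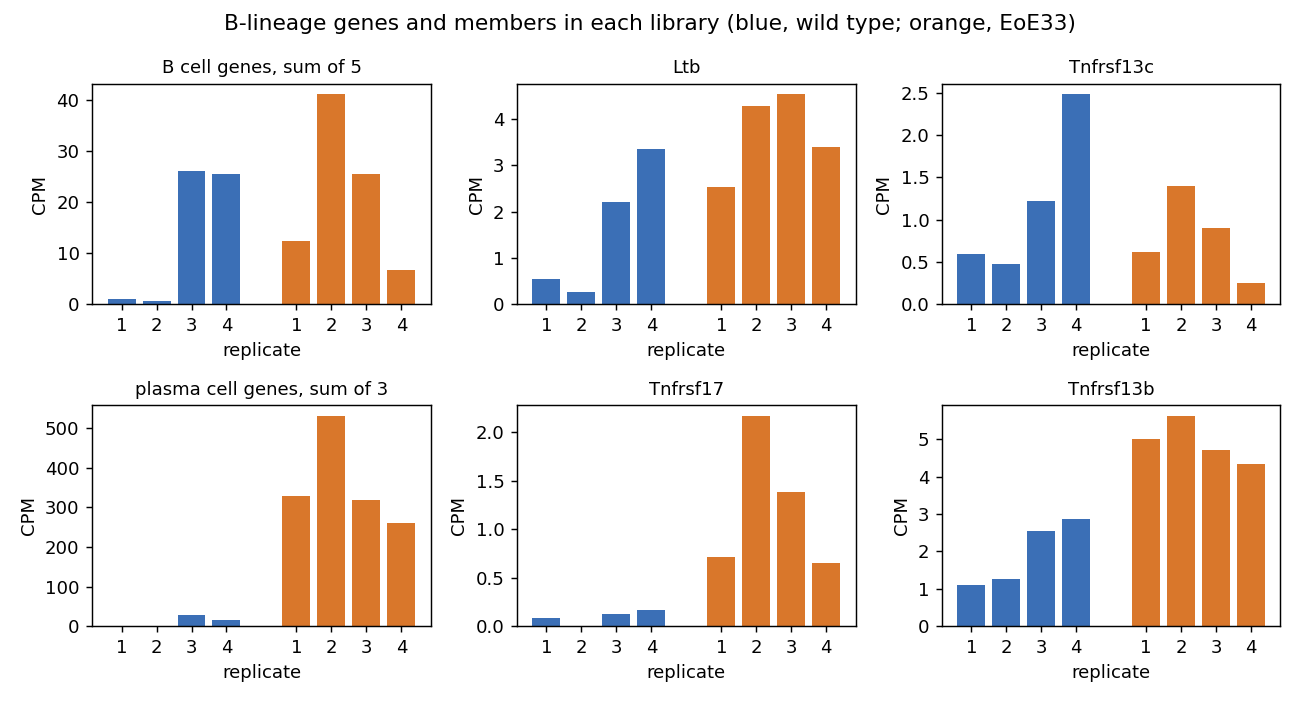
CPM in each library (bars, wild type in blue, EoE33 in orange) of the B cell gene sum, the plasma cell gene sum, Ltb, Tnfrsf13c, Tnfrsf17 and Tnfrsf13b. Wild type replicates 3 and 4 stand high in the B cell sum at 26.1 and 25.5 CPM, while the plasma cell sum separates the genotypes.

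The T cell costimulation receptors Tnfrsf9 and Tnfrsf8 showed large rises from very low levels. Tnfrsf9 (CD137, induced on activated T cells, chr4:150914562-150946102, GRCm38) was at 0.0424, 0.0878, 0.0846 and 0.257 CPM in wild type and at 2.91, 2.75, 2.72 and 2.15 CPM in EoE33. The EoE33 libraries were close together and far above wild type, and the difference was 21.3-fold (log2 fold change 4.42, SE 0.38, edgeR adjusted p = 1.26e-05). It was 5.09 on the log2 scale without wild type replicate 4, which held 6 of its 11 wild type reads. Tnfrsf8 (CD30, of activated lymphocytes) was at 0.170, 0, 0.339 and 0.257 CPM in wild type and at 1.15, 1.81, 1.47 and 1.30 CPM in EoE33, again without overlap, and rose 7.23-fold (edgeR adjusted p = 0.00109).

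Their ligands rose as well. Tnfsf8, the ligand of CD30, was at 0, 0.264, 0.508 and 0.428 CPM in wild type and at 1.48, 1.81, 0.734 and 1.45 CPM in EoE33, a 4.46-fold rise (edgeR adjusted p = 0.0114). Tnfsf9, the ligand of CD137, was at 0.764, 0.791, 1.23 and 0.600 CPM in wild type and at 2.20, 2.87, 2.85 and 1.70 CPM in EoE33, a 2.83-fold rise (edgeR adjusted p = 0.00125). Neither pair of groups overlapped. The antisense gene model Gm11110 overlaps 14.9% of the exon bases of Tnfsf9 and rose as well, from 0.236 to 0.864 CPM. Tnfsf14 (LIGHT, which binds the lymphotoxin beta receptor and HVEM) had 1, 2, 9 and 9 reads in wild type and 19, 17, 38 and 24 in EoE33. It rose 5.19-fold (log2 fold change 2.38, SE 0.51, edgeR adjusted p = 0.00301), with wild type replicates 3 and 4 the higher wild type libraries.

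Of the remaining costimulation receptors, Tnfrsf18 rose, Tnfrsf25 fell and 4 did not pass. Tnfrsf18 (GITR, of regulatory and activated T cells) went from 3.25 ± 0.535 to 6.48 ± 1.12 CPM, 1.99-fold, without overlap (edgeR adjusted p = 0.00108). Its antisense neighbour Gm16008, which overlaps 27.2% of its exon bases, was at 2.79 and 2.24 CPM. Tnfrsf4 (OX40) did not pass, at a log2 fold change of 0.62 (95% interval 0.059 to 1.18, edgeR adjusted p = 0.0528), and passed without EoE33 replicate 4 (0.76, adjusted p = 0.0277). Tnfrsf14 (HVEM) stood at 0.34 (95% interval -0.21 to 0.90, edgeR adjusted p = 0.25) and at 0.59 without wild type replicate 4 (adjusted p = 0.0357). Cd40, the activating receptor of B and myeloid cells, stood at 0.28 (95% interval -0.37 to 0.94, edgeR adjusted p = 0.419) and at 0.66 without the same library (adjusted p = 0.0153). Cd27, a receptor of T and memory B cells, lay at the threshold with a log2 fold change of -0.73 (95% interval -1.38 to -0.079, edgeR adjusted p = 0.05004). Leaving out wild type replicate 1 (-0.85, adjusted p = 0.0415) or 2 (-0.85, adjusted p = 0.0346) brought it past the threshold, while it shrank to -0.51 without replicate 4 (adjusted p = 0.146) and to -0.26 without replicates 3 and 4 (adjusted p = 0.461). Tnfrsf25 (DR3, the receptor for TL1A on T cells and innate lymphocytes) fell, from 4.71, 3.47, 3.09 and 5.53 CPM to 2.24, 2.46, 2.89 and 2.35 CPM. The fall was 1.69-fold and the groups did not overlap (edgeR adjusted p = 0.0122). Beside these receptors, 6 of 13 tested T cell markers (46.15%) rose and none fell, against 31.3% and 32.1% of all tested genes. Cd3g, Cd2, Cd5, Foxp3, Ctla4 and Icos rose, while Cd3d, Cd3e, Cd247, Cd4, Cd8a, Cd28 and Lck did not pass. The summed level of the T cell markers was 20.9 to 31.7 CPM in wild type and 41.8 to 55.6 CPM in EoE33. Cd5 was the largest part of this sum in every library, at 12.64 to 16.54 CPM in wild type and 16.05 to 24.97 CPM in EoE33. The sum therefore leans on Cd5 and is not an even measure of the T cell markers. No marker was at 0 over a whole group, and Cd8b1 was at 0 in wild type replicate 1. The part of T cells in the members' levels was not tested.

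The other costimulation ligands had too few reads to be tested. Tnfsf4 (the ligand of OX40) had 3, 2, 3 and 3 reads in wild type and 9, 1, 3 and 7 in EoE33, and Tnfsf15 (TL1A) had 2, 2, 1 and 13 against 4, 8, 7 and 1. Cd40lg had 0, 0, 0 and 5 reads against 2, 0, 3 and 6, and Cd70 had a single read, in wild type replicate 4. For all of these the groups overlapped and no difference was detectable at this depth. Tnfsf18 (the ligand of GITR) had 1, 1, 3 and 1 reads in wild type and 5, 1, 9 and 9 in EoE33. With every gene that had a read included in the fit, its log2 fold change was 2.10 and passed (edgeR adjusted p = 0.0355), and the other 7 untested ligands did not (edgeR adjusted p = 0.0941 to 0.738).

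In the list of death ligands and receptors 6 genes were tested, of which 3 rose, none fell and 3 did not pass. They were Fas, Tnfsf10, Tnfrsf10b, Tnfrsf22, Tnfrsf23 and Tnfrsf26. A smaller share of this list passed than the 63.4% of all tested genes. Tnfrsf23 and Tnfrsf22, mouse receptors that bind TRAIL and lack a death domain, lie side by side with Tnfrsf26 within 78.2 kb (chr7:143607659-143685872, GRCm38), and all 3 rose. Tnfrsf23 was at 9.04, 10.01, 9.99 and 8.82 CPM in wild type and at 23.9, 51.7, 27.4 and 21.8 CPM in EoE33. All EoE33 libraries lay above wild type, with replicate 2 the highest, and the rise was 3.29-fold (log2 fold change 1.72, SE 0.27, edgeR adjusted p = 0.000583). Tnfrsf26 rose 2.55-fold from 0.428 ± 0.149 CPM (edgeR adjusted p = 0.00521) and Tnfrsf22 1.36-fold from 5.2 ± 0.181 CPM (edgeR adjusted p = 0.00601). Tnfrsf22 no longer passed without wild type replicates 1 and 3 (edgeR adjusted p = 0.0604) or without replicates 3 and 4 (0.0517). Part of the reads can match both genes, since 10.3% of the 150-base windows of Tnfrsf22 and 5.71% of those of Tnfrsf23 occur in another gene.

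Of the death receptors that signal, Tnfrsf21 rose and Tnfrsf10b and Fas did not pass. Tnfrsf21 (DR6, with a death domain) rose from 38.1 ± 6.11 to 69.9 ± 16.6 CPM, 1.84-fold (edgeR adjusted p = 0.0025). Tnfrsf10b, the mouse TRAIL receptor with a death domain, stood at a log2 fold change of 0.48 (95% interval -0.0092 to 0.96, edgeR adjusted p = 0.0793), and at 0.64 without EoE33 replicate 4 (adjusted p = 0.0119). Fas was at 7.76 ± 1.05 CPM in wild type against 6.06 ± 0.781 CPM in EoE33 (log2 fold change -0.36, 95% interval -0.68 to -0.036, edgeR adjusted p = 0.0514). The threshold was passed when wild type replicate 2 (-0.41, adjusted p = 0.0448) or EoE33 replicate 3 (-0.43, adjusted p = 0.0351) was left out. The estimate was -0.27 without wild type replicate 4 (edgeR adjusted p = 0.128) and -0.28 without EoE33 replicate 1 (edgeR adjusted p = 0.122). Fas ligand had 1, 0, 3 and 0 reads in wild type and 3, 4, 1 and 2 in EoE33. Tnfsf10 (TRAIL) was at 3.86, 3.38, 4.44 and 3.86 CPM in wild type and 6.02, 3.10, 6.04 and 4.89 CPM in EoE33, where replicate 2 lay below all wild type libraries (log2 fold change 0.37, 95% interval -0.11 to 0.86, edgeR adjusted p = 0.156). Without that library it passed at 0.54 (edgeR adjusted p = 0.0146). Of the 7 receptors with a death domain, 2 rose, 2 fell and 3 did not pass, so that 57.1% of them were called, against 63.4% of all tested genes.

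TWEAK and its receptor went in opposite directions. Tnfrsf12a (Fn14, induced in injured and growing tissue) was at 14.9, 14.8, 15.8 and 12.0 CPM in wild type and at 24.0, 70.7, 37.4 and 21.9 CPM in EoE33. The groups did not overlap, and EoE33 replicate 2 was the highest by far. The rise was 2.68-fold (log2 fold change 1.42, SE 0.37, edgeR adjusted p = 0.0105) and did not pass without wild type replicates 1 and 3 (1.52, adjusted p = 0.0645) or without 3 and 4 (1.37, adjusted p = 0.088). Tnfsf12 (TWEAK) was at 9.93, 5.89, 9.56 and 10.4 CPM in wild type and at 6.06, 5.44, 6.30 and 6.04 CPM in EoE33. Wild type replicate 2 lay within the EoE33 range, and the fall of 1.5-fold (edgeR adjusted p = 0.0171) did not pass without wild type replicates 1 and 3 (adjusted p = 0.14) or without 3 and 4 (adjusted p = 0.143). Of the windows of Tnfsf12, 45% also occur in Tnfsfm13.

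Eda, its receptor Edar and the orphan receptor Tnfrsf19 fell. Eda (ectodysplasin, a ligand for skin appendage and gland development, chrX:99975606-100400762, GRCm38) was at 6.83, 6.85, 6.86 and 8.14 CPM in wild type and at 3.20, 2.52, 2.63 and 3.30 CPM in EoE33. Every EoE33 library lay below every wild type library, a 2.46-fold fall (log2 fold change -1.30, SE 0.14, edgeR adjusted p = 5.07e-05). Its receptor Edar was at 1.70, 1.41, 1.48 and 1.5 CPM in wild type and at 0.955, 0.585, 0.734 and 0.749 CPM in EoE33, again without overlap, and fell 2.00-fold (edgeR adjusted p = 0.0026). Edaradd, the adapter of Edar, went the other way, from 4.19 ± 0.577 to 8.99 ± 2.32 CPM, a 2.14-fold rise without overlap (edgeR adjusted p = 0.00128). Eda2r, a further ectodysplasin receptor outside the symbol rule, fell 1.82-fold (edgeR adjusted p = 0.000196). Tnfrsf19 (TROY, a receptor of epithelial progenitors and the nervous system, chr14:60963875-61046490, GRCm38) was at 39.7, 36.0, 28.6 and 42.8 CPM in wild type and at 12.8, 6.38, 11.7 and 13.8 CPM in EoE33. The fall was 3.28-fold (log2 fold change -1.71, SE 0.23, edgeR adjusted p = 0.000222), with the lowest value in EoE33 replicate 2. Ngfr, the neurotrophin receptor, was at 7.40 ± 1.02 and 8.27 ± 1.21 CPM (log2 fold change 0.16, 95% interval -0.17 to 0.49, edgeR adjusted p = 0.365). Beside these falls, 11 of 12 skeletal muscle markers fell, with a summed 33382 to 35597 CPM in wild type and 8883 to 11721 CPM in EoE33. Of 8 basal keratinocyte markers 6 rose and 2, Krt15 and Dst, fell. Their sum was 4084 to 5624 CPM in wild type and 16647 to 20421 CPM in EoE33. Krt5 and Krt14 gave most of this sum in EoE33, at 6311 to 8735 and 7643 to 9139 CPM. Of all tested genes 31.3% rose and 32.1% fell. No marker of either list was at 0, and the part of these tissues in the members' levels was not tested.

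EoE33 replicate 2 was the highest library for 15 of the 20 members that rose (75%), and for 50.9% of all 5238 genes that rose. Within the genome, 23 members lay in 9 clusters of neighbours at most 500 kb apart. In 7 clusters at least 1 member rose and none fell. The cluster of Tnfsf13 and Tnfsf12, 13 kb long, held 1 riser and 1 faller, and the cluster of Tnfsf4, Tnfsf18 and Fasl held only untested genes.

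The other genes of the pathway were taken from lists of 56 genes, all of them tested, of which 37 rose (66.1%), 8 fell (14.3%) and 11 did not pass, against 31.3% and 32.1% of all tested genes (median log2 fold change 0.45, over all genes -0.014). The lists were chosen with earlier results of these data known, so these shares describe the listed genes and are not independent support. With lists as small as 5 to 23 genes, the counts of the single lists describe their members alone. All 5 NF-kB subunits rose, from Rela at 1.54-fold to Nfkb1 at 3.65-fold, the latter from 68.5 ± 2.45 to 249.8 ± 47.3 CPM (edgeR adjusted p = 3.17e-06). Rel, Nfkb2 and Relb rose 2.52-fold, 2.21-fold and 2.24-fold. Of the 11 inhibitors and feedback genes 10 rose, and Cyld, a deubiquitinase, did not pass (log2 fold change -0.092, edgeR adjusted p = 0.442). Tnfaip3, which encodes the ubiquitin-editing inhibitor A20, rose 10.7-fold from 5.82 ± 1.02 to 62.3 ± 16.5 CPM (edgeR adjusted p = 3.21e-06). Tnip3, whose product binds A20, rose 16.4-fold from 0.761 CPM, and the nuclear IkB proteins Bcl3 and Nfkbiz rose 5.31-fold and 3.57-fold.

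Of 23 adapters and kinases, 13 rose, 4 fell and 6 did not pass. Birc3, a ubiquitin ligase bound by TRAF2, rose 4.20-fold, from 14.9 ± 2.15 to 62.5 ± 12.5 CPM (edgeR adjusted p = 7.40e-06). Map3k14, which encodes the kinase NIK of the alternative NF-kB route, rose 2.51-fold, and the death domain adapters Tradd and Ripk1 rose 2.08-fold and 1.88-fold. The 4 that fell were Traf6, Traf5, Tab2 and Rbck1, with log2 fold changes of -0.75, -0.51, -0.38 and -0.14. Of the 7 death machinery genes 4 rose, among them Mlkl, the executor of necroptosis, at 7.77-fold (edgeR adjusted p = 1.70e-06), and its activating kinase Ripk3 at 4.07-fold. Casp8 rose 2.02-fold and Cflar 1.36-fold (edgeR adjusted p = 0.00024). Diablo, which antagonises caspase inhibitors, fell with a log2 fold change of -0.39. Of the 10 sheddases, TNF-induced genes and further superfamily members, 5 rose, 3 fell and 2 did not pass. Adam17, the protease that releases TNF and its receptors, rose 1.74-fold and Adam10 2.65-fold, and Tnfaip2, a TNF-induced gene, rose 4.62-fold. Timp3, an inhibitor of ADAM17, fell 2.14-fold (edgeR adjusted p = 5.40e-05).

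**Figure D5:**
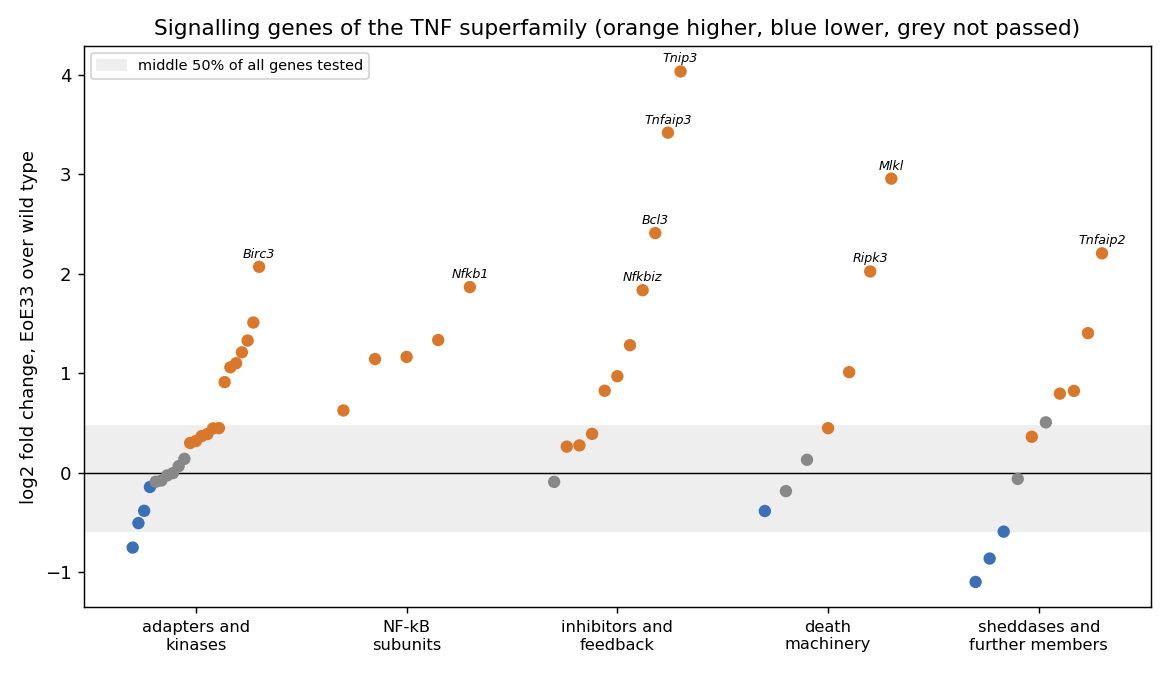
Log2 fold change of EoE33 against wild type for the 56 pathway genes, grouped by list, each point a gene, orange where it rose, blue where it fell and grey where it did not pass. The grey band is the middle 50% of all tested genes, -0.58 to 0.47. All 5 NF-kB subunits lie above 0, and Tnip3 is highest at 4.04.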

How the data were processed

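PolyA-selected RNA of whole esophagi was read from both ends on an Illumina HiSeq, per the labels' protocols. The authors deposited raw counts per gene for 8 libraries in 1 table. The submitters' processing notes name Trimmomatic 0.36, STAR 2.5.2b, featureCounts, Subread 1.5.2 and the build GRCm38. Strand handling, multi-mapped reads and the annotation release are not stated. Without strand, antisense partners cannot be told apart. Columns were assigned to samples by the spreadsheet letter in each sample's description.

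Symbols, coordinates and exon lengths came from GENCODE M21, which matched 49056 identifiers (259 did not). Genes were filtered with filterByExpr, which left 16760, scaled by TMM and tested with edgeR 4.0.16 in R 4.3.3 (glmQLFit with robust = TRUE, glmQLFTest, genotype as the only term). P-values were adjusted over all tested genes by Benjamini-Hochberg. Standard errors and 95% intervals of log2 fold changes derive from the quasi-likelihood F statistic. Exact intervals and the floor of 3 counts cover counting error only. The procedure was tested on simulated data. Library pairs within a group differed beyond counting error (chi-square 10.4 to 70.1 per degree of freedom, genes with at least 10 counts).

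The rule named every superfamily member and, of each pathway list, the 4 genes with the smallest p past the threshold and any that was alone in its direction. Relb, Cyld, Edaradd, Eda2r and the adapters that fell were named after their values were seen, since they are few or go with a named member. The members, lists and rule were chosen with earlier results of these data known. Alternatives were other scalings, filters, DESeq2 1.42.0, limma-voom (limma 3.58.1), a replicate term and leaving out libraries. Results of 3 genes of these lists are not reported here, the counts and sums leave them out, and no other gene was named in their place.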

Additional observations from a re-analysis of the deposited data

Results flagged for a closer look

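In 4 of the 72 groups of 4 libraries checked, 1 library lay far from the other 3, and chance alone flags about 1 group in 20. Cd40 was at 3.47 CPM in wild type replicate 4, against 1.41 to 1.65 CPM in the other wild type libraries. Eda was at 8.14 CPM in wild type replicate 4, against 6.83 to 6.85 CPM, and fell in EoE33 with or without that library. Tnfrsf11a was at 7.75 CPM in wild type replicate 4, against 5.42 to 5.75 CPM. Tnfrsf18 was at 2.45 CPM in wild type replicate 3, against 3.43 to 3.60 CPM.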

How the results depend on the processing

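Of the 25 members that passed, 18 kept their call and direction under all 20 alternatives. A further 4 (Tnfsf8, Tnfsf14, Tnfrsf17 and Tnfrsf26) did so under the 19 in which they were tested, since they had too few reads for the filter of at least 1 CPM in 4 libraries. The others were Tnfrsf12a, Tnfrsf22 and Tnfsf12, each only where a pair of wild type libraries was left out. The median log2 fold change of the tested members was 0.86, and 0.61 with that filter, which left 31 members. The direction turned for members that had not passed: Tnfrsf13c was at 0.53 without wild type replicates 3 and 4, and leaving out 1 library at a time gave -0.99 to 0.0284 for Tnfrsf13c and -0.19 to 0.000783 for Tnfrsf11a. Leaving out 1 library at a time gave 8 to 9 ligands, 17 to 19 receptors, 41 to 46 pathway genes, 9705 to 10467 of all genes, and a median of 0.77 to 0.91. With a replicate block, 8 ligands, 18 receptors, 44 pathway genes and 10056 of all genes passed, the median was 0.85, and Cd27 passed (edgeR adjusted p = 0.0415). Replicate numbers did not pair the libraries, with correlations of same-numbered deviations of 0.12, -0.13, 0.056 and -0.13. Members that had not passed did so in 21 of their 219 alternative results. Leaving out 1 library at a time gave log2 fold changes of 0.87 to 1.86 for Ltb, 0.42 to 0.76 for Tnfrsf4, 0.19 to 0.59 for Tnfrsf14, 0.15 to 0.66 for Cd40, 0.33 to 0.64 for Tnfrsf10b and 0.28 to 0.54 for Tnfsf10. DESeq2 called 8 ligands and 17 receptors, and 64.4% of all genes. No scaling moved the median of all genes by more than 0.089 on the log2 scale from 0. Library size without Chil4 gave 36.2% of all genes higher and 27.2% lower, and 19 receptors, 16 of them higher. Depth limits the 8 untested ligands.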
